A study of Mus musculus with 12 samples.

Results

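Lyz2 encodes lysozyme M, the lysozyme of mouse macrophages, microglia and granulocytes. It was followed here in neurons laser-captured from MEC and LEC, the medial and lateral parts of the entorhinal cortex, of Naglu-/- mice and Naglu+/- littermates. It is 1 of 27573 genes or unnamed transcripts on the array. Of 41174 probes, 2 carry the design's older name for it, Lyzs, and the same transcript accession. Of these, 1 was bright enough to measure. The gene was chosen because its mutant over control ratio was known to be high, so that ratio is given as a description, without a test.

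The mutant mice, Naglu-/-, lack alpha-N-acetylglucosaminidase, a lysosomal enzyme that breaks down heparan sulfate, and are a model of Sanfilippo syndrome type B. Their controls, Naglu+/-, carry 1 intact copy and are described as unaffected. All mice were C57BL/6 females aged 2 months. Nissl-stained sections 12 µm thick yielded 500 neurons per region, picked by their form, and the amplified RNA of a mutant and a control littermate shared an array. There were 3 pairs for MEC and 3 for LEC, each on 2 arrays with the dyes swapped, which makes 12 arrays. The labels do not say whether the MEC and LEC pairs of 1 number came from the same mice.

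Lysozyme cleaves the peptidoglycan of bacterial cell walls. Mononuclear phagocytes secrete it and also store it in lysosomes, and neurons are not known as a main source. In the resting brain Lyz2 is low in microglia, and it rises in phagocytes that take up debris or stored material. Mice carry a second, neighbouring lysozyme gene, Lyz1, known from Paneth cells of the gut.

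Both genes lie on the minus strand of chromosome 10, with 5522 bases between them in assembly GRCm38.p6. Their promoters are shown because Lyz1 is the neighbouring lysozyme gene and was read on the same arrays. Each line holds the 250 bases before the transcription start from RefSeq (GRCm38.p6), 5′ to 3′, and the capitals mark the 50 bases next to the start that are identical in both.
Lyz2 promoter (chr10:117282273-117282522, minus strand): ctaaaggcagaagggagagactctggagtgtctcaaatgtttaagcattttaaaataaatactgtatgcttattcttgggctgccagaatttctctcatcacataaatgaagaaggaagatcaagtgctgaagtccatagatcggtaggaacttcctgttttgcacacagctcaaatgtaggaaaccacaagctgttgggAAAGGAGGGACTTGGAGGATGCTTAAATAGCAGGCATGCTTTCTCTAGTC
Lyz1 promoter (chr10:117292869-117293118, minus strand): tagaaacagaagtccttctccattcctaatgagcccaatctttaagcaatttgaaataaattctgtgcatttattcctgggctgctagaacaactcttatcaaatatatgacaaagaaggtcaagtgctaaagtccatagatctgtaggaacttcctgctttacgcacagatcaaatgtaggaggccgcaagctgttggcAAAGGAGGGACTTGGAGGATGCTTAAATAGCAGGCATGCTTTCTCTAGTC

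An end-to-end alignment of these 2 windows (match 1, mismatch −1, gap −2) had 200 identical bases over 252 columns, or 79.4%. Searched on both strands, the PU.1 motif GAGGAA, with PU.1 a master regulator of myeloid genes, had 0 matches in either window, and 23.3% of 32851 promoters held it. TGTGGT, a motif of the blood cell factor Runx1, had 1 match in the Lyz2 window and 0 in that of Lyz1, and 14% of all promoters held it. The C/EBP motif TTGCNNAA had 0 matches in Lyz2 and 1 in Lyz1 (9.56% of all promoters), and the lysosomal gene motif CACGTG, bound by TFEB, had 0 in both (6.02%). These matches describe letters only, and each motif was searched only in the spelling given. Both printed windows do hold GGAA, the end of the PU.1 spelling, on both strands within a stretch that they share. The share of all promoters with such a stretch was not counted. Sites of PU.1 or of the other factors in another spelling were not searched for. Having 0 matches thus does not show that a window lacks such sites, and whether either window holds them was not tested.

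The direction of the ratios has to be stated before their values. In replicate 2 of both regions, which is 4 of the 12 arrays, the sign of the authors' value table opposes the labelled dyes. The ratios here follow the table, a choice that was not blind to Lyz2. Across all 10894 genes measured, the pair ratios of MEC replicates 2 and 3 then correlated at −0.58 and those of LEC replicates 2 and 3 at −0.47. Turned as labelled, replicate 2 gave 0.58 and 0.47. Other pairs were mixed. MEC replicate 2 correlated at 0.25 with LEC replicate 3 and at −0.23 with LEC replicate 1, and as labelled at −0.25 and 0.23. Replicates 1 and 3, whose direction is not in question, correlated at only 0.02 in MEC and −0.01 in LEC. The direction of replicate 2 is therefore not settled, and signed values of Lyz2 are also given with it turned.

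In MEC, the Lyz2 probe (build mm8, chr10:116681504-116681563) was brighter in the mutant dye on 6 of 6 arrays. Its mean signal in MEC replicate 1 was 574 and 304 scanner units in the mutant dye, against 115 and 116 in the control dye. Replicate 2 gave 227 and 247 in the mutant dye, against 115 and 118 in the control dye. Replicate 3 gave 666 and 622 in the mutant dye, against 82.7 and 60.8 in the control dye. In the table's direction the lowest of the 6 mutant signals thus lay above the highest of the 6 control signals, 227 against 118. With replicate 2 turned as labelled, its 227 and 247 become control signals, and the genotypes overlap. These raw signals mix both dyes, and the share of all genes with such an order was not counted for them. The local background beside the spot was 30 to 40 units in the mutant dye and 29 to 39 in the control dye.

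The LEC arrays showed the same order within each array. LEC replicate 1 gave 779 and 467 units in the mutant dye, against 163 and 266 in the control dye. Replicate 2 gave 489 and 1020 in the mutant dye, against 125 and 134 in the control dye. Replicate 3 gave 415 and 297 in the mutant dye, against 127 and 112 in the control dye. Over LEC, in the table's direction, the lowest mutant signal, 297, was just above the highest control signal, 266, which came from replicate 1. With replicate 2 turned as labelled, its 489 and 1020 become control signals, and the genotypes overlap. The share of all genes with such an order of raw signals was not counted here either. Signals were well above background in 12 of 12 mutant and 12 of 12 control readings, and 0 readings were saturated or marked as outliers by the scanner software. Lyz2 RNA was thus measured in both genotypes, not in mutants alone.

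**Figure D1:**
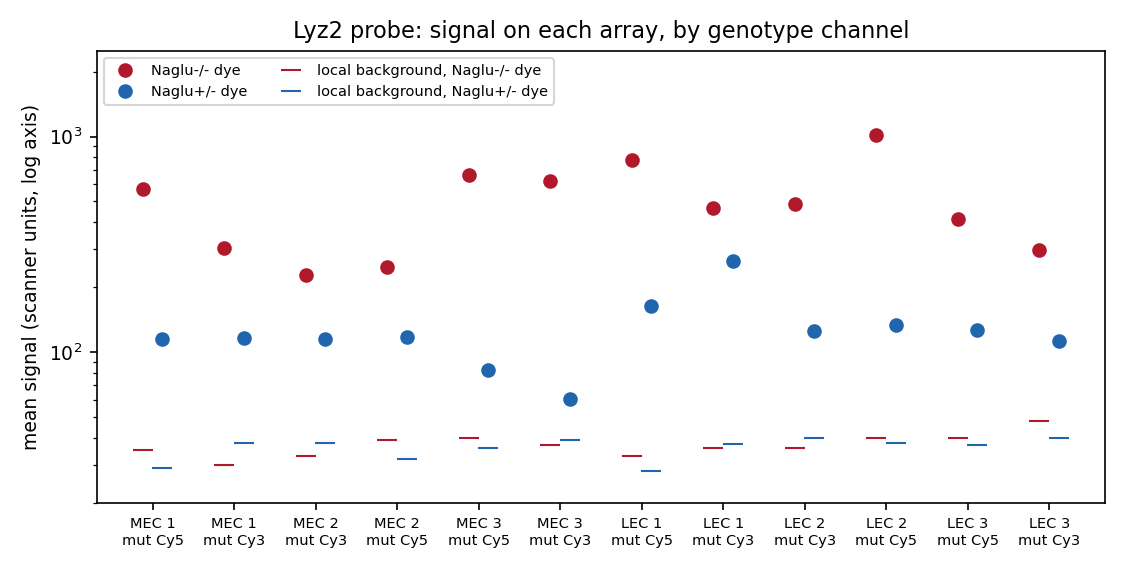
Mean signal of the Lyz2 probe (log axis, scanner units) in the mutant dye (red) and the control dye (blue) of each of the 12 arrays, with short bars for the local background. Genotypes of replicate 2 follow the authors' value table. On each array the red point lies above the blue one, and the gap is smallest on an array of LEC replicate 1, at 467 against 266.

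After correction for background and dye, the log2 ratio of mutant over control was 1.67, 1.80 and 1.90 in the 3 MEC pairs. These pairs lay close together, with a mean of 1.79 (SE 0.22, SD 0.11, n = 3) or 3.45-fold. In LEC the pairs read 1.17, 2.50 and 1.64, a mean of 1.77 (SE 0.22, SD 0.67, n = 3) or 3.41-fold. Averaged over both regions the log2 ratio was 1.78 (SE 0.15, n = 6 pairs), with a 95% interval of 1.41 to 2.14. SE and intervals are from limma, which pools the spread of the 6 pairs, and they measure only the spread between these samples. With replicate 2 turned as labelled the MEC mean was 0.59, the LEC mean 0.10 and the average 0.35. Without replicate 2 of both regions they were 1.78, 1.40 and 1.59.

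The ratio in MEC minus that in LEC was 0.02 (SE 0.31), and its 95% interval ran from −0.71 to 0.75. A difference between the regions of up to about this size is not detectable with 3 pairs each. LEC replicate 2 carried the highest ratio, and without it the LEC mean was 1.40 and MEC minus LEC was 0.38. In that pair, the medians of some marker lists, neuronal and other, also stood high. The median ratio of 7 astrocyte markers was 0.69, against −0.03 and −0.20 in the other LEC pairs. That of 7 inhibitory neuron markers was 0.38, against −0.11 and −0.10, while that of 9 excitatory neuron markers was 0.01, against −0.14 and −0.03. The median of 7 blood, choroid plexus and meningeal markers was 0.31 in it, against −0.16 and −0.08 in the others. Turning a pair reverses the sign of every ratio in it. Turned as labelled, LEC replicate 2 read −2.50 for Lyz2, −0.69 for the astrocyte median and −0.31 for that of blood, choroid plexus and meninges. That these change sign together follows from the turning and shows no link between them. The part of these cells in the Lyz2 value of that pair was not tested.

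Both dye orientations gave the same sign in each pair. The dye-swapped arrays of a pair differed by 0 to 0.61 on the log2 scale, with a mean of 0.29. The mean ratio was 1.63 with the mutant in Cy5 and 1.92 with the mutant in Cy3. The size of the ratio changed more with the authors' own processing. Their value table held log2 ratios of 2.3 to 3.5 on the MEC arrays and 1.3 to 3.6 on the LEC arrays, and pair averages of that table came to 2.72 in MEC and 2.38 in LEC. The table's centring is not stated.

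The mutant dye was brighter than the control dye on 12 of 12 arrays for Lyz2, as for 7 of 10894 genes, or 0.0643%. Turning replicate 2 as labelled left the mutant dye brighter on 8 of 12 arrays for Lyz2, and on 12 of 12 for 18 other genes. Without replicate 2 it was brighter on 8 of 8 arrays, as were 0.927% of genes. Lyz2 had the highest mean ratio of the 10894 genes in MEC, in LEC and over both. By pair it ranked 1, 1 and 2 in MEC and 46, 3 and 2 in LEC, so LEC replicate 1 stood apart from the others. It was the single gene with a log2 ratio above 1 in 6 of 6 pairs. These ranks rest on the table's direction. Turned as labelled, replicate 2 put the mean ratio of Lyz2 at rank 21 in MEC, 1665 in LEC and 75 over both, and left 0 genes above 1 in 6 of 6 pairs. Without replicate 2 its mean ranked 2 in MEC, in LEC and over both.

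Sizes without regard to sign do not depend on the direction of replicate 2. In this form Lyz2 was at least 1.17 in each of the 6 pairs, and the genes above 1 in 6 of 6 pairs numbered 2. The other was Zic1, a transcription factor gene of the developing nervous system and meninges, singled out here after its values were seen. Zic1 read 1.51, −1.50 and 2.46 in MEC and 3.79, 1.75 and −1.34 in LEC, so its sign changed between pairs in either direction of replicate 2. By size, Lyz2 ranked 2, 1 and 4 in the MEC pairs and 48, 3 and 5 in the LEC pairs.

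By limma 0 of 10894 genes, or 0%, passed an adjusted p of 0.05 for mutant over control in MEC, in LEC or over both regions, Lyz2 included. At an unadjusted limma p under 0.05 there were 123 genes in MEC, 170 in LEC and 242 over both. Over both, 1.37% of all genes were on the higher side in the mutant and 0.854% on the lower side. With replicate 2 turned as labelled there were 1244, 1095 and 1326 of 11091 genes, with 0 passing the adjusted p. The unadjusted counts thus depend on the direction of replicate 2. As Lyz2 was chosen from this contrast, no p is given for it.

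**Figure D2:**
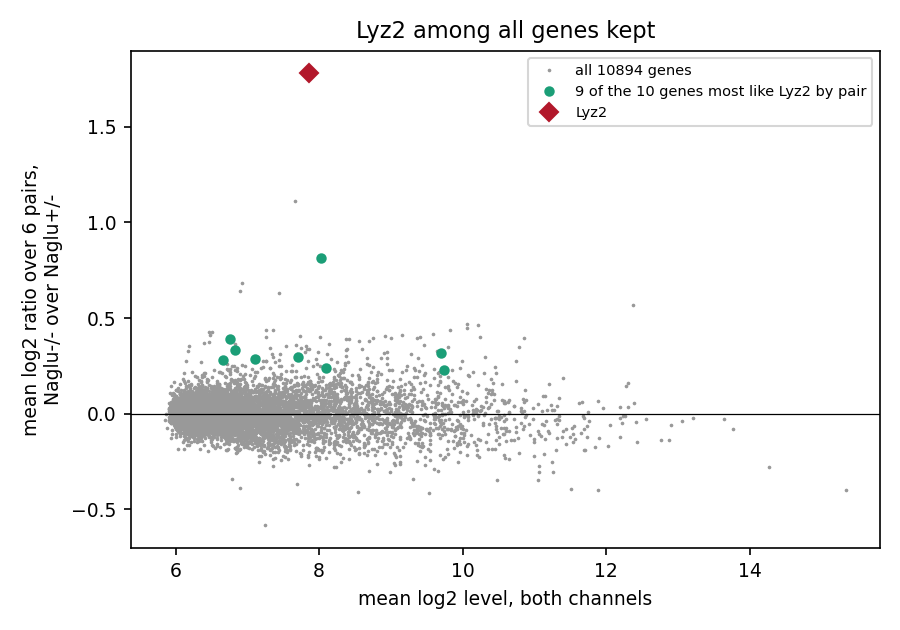
Mean log2 ratio of mutant over control over the 6 pairs against the mean log2 level of both channels, for 10894 genes (grey), Lyz2 (red) and 9 of the 10 genes whose pair ratios were most like those of Lyz2 (green). In the direction of the authors' value table Lyz2 lies at 1.78, above Zic1 at 1.11 and Ctss at 0.81.

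The second Lyz2 probe gave no measurement. The files give it the same transcript accession and place it at higher coordinates (build mm8, chr10:116686229-116686288), with the outer ends of the 2 probes 4785 bases apart. The Lyz2 gene is 4732 bases long in GRCm38.p6, so both probes cannot lie wholly within a gene of that length, and where this probe lies in the transcript was not settled. Only 2 of 12 mutant and 2 of 12 control readings rose well above background. Its mean signal over the 12 arrays was 37.8 to 82.2 units in the mutant dye, and its pair ratios were −0.03 to 0.05. The ratio of Lyz2 thus rests on 1 probe. Whether the amplification of the RNA bears on the gap between the probes was not tested.

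The Lyz1 probe (build mm8, chr10:116692308-116692367), labelled Lzp-s in the files, was also near background. Readings well above background numbered 5 of 12 in mutant and 2 of 12 in control channels, too few to keep. By pair it read 0.16, 0.04 and 0.08 for MEC, then 0.02, 0.22 and 0.12 for LEC. These values are on 1 side of 0 in 6 of 6 pairs, and with replicate 2 turned in 4 of 6, but at signals of 49.5 to 92.1 units in the mutant dye they are near the limit of measurement. The probe sequences were not used here, so cross-reaction between the genes was not tested.

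**Figure D3:**
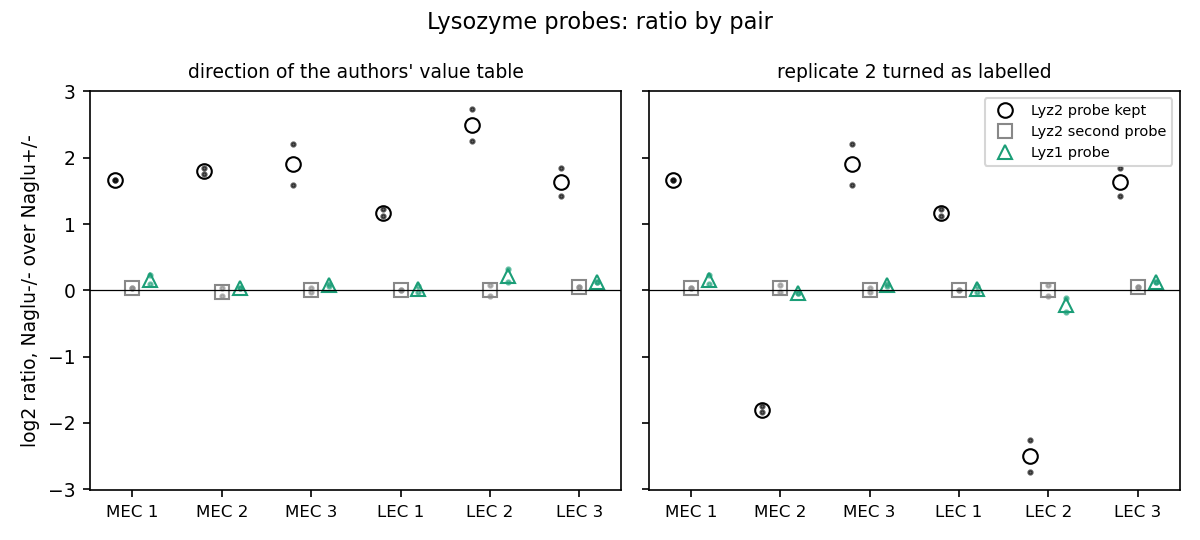
Log2 ratio of mutant over control by pair for the kept Lyz2 probe (circles), the second Lyz2 probe (squares) and the Lyz1 probe (triangles), with dots for the 2 arrays of a pair. The left panel follows the authors' value table, in which Lyz2 lies between 1.17 and 2.50, and in the right panel replicate 2 is turned as labelled.

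The rest of the lysozyme family was hardly detected. Of 8 other family members with a probe, 1 passed the filter on dim probes, Lyzl4, which encodes a sperm lysozyme-like protein. It read −0.04 (SE 0.05) over both regions and 0.03 with replicate 2 turned. Lyzl1, Lyzl6, Spaca3 and Spaca5, known from testis and sperm, Lalba, the milk protein alpha-lactalbumin, and the goose-type lysozyme gene Lyg1 fell below the filter, and Spaca3 was at background in all 24 readings.

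Genes around Lyz2 on chromosome 10 stayed near 0. Of 8 with a probe, 4 were measured. Yeats4, a reader of acetylated histones, stood at −0.05 (SE 0.05), and Cpsf6, a factor of pre-mRNA 3′ processing, at 0.01 (SE 0.08). The chaperonin subunit Cct2 read 0.02 (SE 0.10) and the FGF receptor substrate Frs2 0.03 (SE 0.06). Their ratios were 0.01 to 0.07 with replicate 2 turned. Cpm, Lrrc10 and Bbs10 fell below the filter along with Lyz1.

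The levels of Lyz2 in the 2 regions were compared next, a comparison that the choice of the gene did not use. Levels are log2 intensities made comparable between arrays, and the test is limma with 3 pairs per region. In mutant channels Lyz2 stood at 8.94, 8.39 and 9.16 in MEC, against 8.68, 9.14 and 8.17 in LEC. In control channels it stood at 7.28, 6.59 and 7.27 in MEC, against 7.51, 6.65 and 6.53 in LEC. The regions overlapped in both genotypes. MEC minus LEC was 0.17 (SE 0.28, limma adjusted p = 0.755) in mutant channels, where 3.57% of genes passed. It was 0.15 (SE 0.28, limma adjusted p = 0.805) in control channels, where 5.07% passed. Over both channels the level was 7.94 ± 0.39 in MEC and 7.78 ± 0.39 in LEC (SD, n = 3 each), a difference of 0.16 (SE 0.23, 95% interval −0.37 to 0.69, limma adjusted p = 0.651). In this test 25.6% of genes passed, 1294 higher in MEC and 1500 higher in LEC. All MEC arrays were scanned in 1 session and all LEC arrays in another, so scan session and region cannot be told apart.

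Among these 12 channel means, the lowest mutant level, 8.17 in LEC replicate 3, lay above the highest control level, 7.51 in LEC replicate 1. This was so for 4 genes, or 0.0367% of all, and the others were Las1l, C1qc and Scrn1. Las1l and Scrn1 fall outside the rule for named genes and are listed because the count is small. The Lyz2 levels overlapped with replicate 2 turned, at 6.59 to 9.16 in mutant channels and 6.53 to 9.14 in control channels. In captured tissue, more Lyz2-expressing cells and more Lyz2 RNA per cell cannot be told apart.

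Which genes had pair ratios most like those of Lyz2 was asked of the 272 genes with a mean ratio of at least 0.2 in size, 178 above 0 and 94 below. The measure was the uncentred correlation over the 6 pairs, which is 1 for proportional ratios. Turning replicate 2 does not change this measure for a gene, but it changes which genes reach a mean of 0.2: chosen that way, the 10 names shared 0 with those given here. The names thus rest on the table's direction. Likeness to Lyz2 fixes the sign of a gene, so the direction of these genes is not a separate result. The median over the 272 genes was 0.313, and the tenth and eleventh genes had 0.873 and 0.864, so the end of the list is not a sharp step.

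Of the 10 genes that ranked highest, 9 are named here. Among them Ctss, Trem2, C1qc and Ctsb are known from microglia or from lysosomes, and H2-K1 from antigen presentation. The share of such genes among the 272 was not counted, so this is a description only. Ctss, the endolysosomal protease cathepsin S, was the nearest to Lyz2 in size of the 9, with an uncentred correlation of 0.952. The MEC pairs read 0.90, 0.51 and 0.94 and the LEC pairs 0.79, 1.41 and 0.32, a mean of 0.81 (SE 0.14). Its highest ratio, like that of Lyz2, came from LEC replicate 2, which turned as labelled read −1.41 for Ctss and −2.50 for Lyz2, the lowest of the 6 pairs for each.

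Trem2, a lipid-sensing receptor of microglia, followed at 0.944, with pair ratios of 0.47, 0.57 and 0.15 for MEC, and of 0.27, 0.50 and 0.39 for LEC. C1qc, a chain of the complement protein C1q, reached 0.912 with a mean of 0.28 (SE 0.06), and the lysosomal protease Ctsb 0.907 with a mean of 0.32 (SE 0.08). The class I histocompatibility heavy chain H2-K1 reached 0.924 with a mean of 0.33 (SE 0.06), although its other kept probe averaged 0.05. Amz1, a metalloprotease of unclear role, reached 0.914 and had ratios of 0.12 to 0.39.

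The highest likeness, 0.982, belonged to Gpr17, a receptor of maturing oligodendrocyte precursors, at a mean ratio of only 0.24 (SE 0.05). Prxl2a, a redox protein of the peroxiredoxin-like family, had 0.874, and Pura, a nucleic acid binding protein of neurons, 0.873. Another kept probe of Pura averaged 0.00. With replicate 2 turned, the mean of Ctss was 0.17, that of Trem2 0.04 and that of Gpr17 0.03, beside 0.35 for Lyz2.

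Over the 24 single channel readings, the log2 levels of Ctss and Lyz2 had a Pearson r of 0.85. It was 0.81 for H2-K1, 0.75 for C1qc, 0.72 for Trem2 and 0.66 for Ctsb, but 0.20 for Gpr17 and 0.30 to 0.36 for Amz1, Prxl2a and Pura. These readings share arrays, littermate pairs and signal depth, and the genes were picked on the same data, so the values are descriptive.

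**Figure D4:**
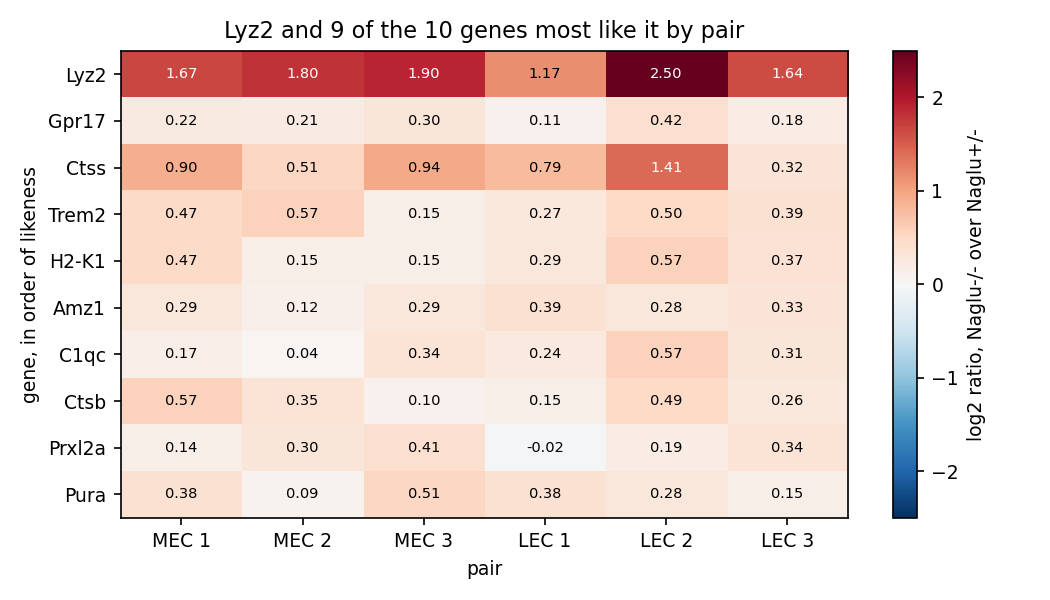
Log2 ratios of mutant over control in the 6 pairs for Lyz2 (top row) and 9 of the 10 genes with the most similar pair ratios, in order of likeness. In the direction of the authors' value table the Lyz2 row runs from 1.17 to 2.50, and that of Ctss from 0.32 to 1.41.

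Lists of genes that Lyz2 is known to accompany were then described without it. For comparison, the median ratio of all 10894 genes over both regions was 0.000707, and 50.6% of them lay above 0. With replicate 2 turned the median of all genes was 0.0174.

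Of 26 microglial markers with a probe, 17 passed the filter. Their median ratio was 0.0387, with 13 above 0 and 4 below, and there were 9 above 0 with a median of 0.00932 when replicate 2 was turned. Without replicate 2, 11 lay above 0 and the median was 0.0168. With the authors' processed signals 12 lay above 0 and the median was 0.151. In that setting the median was 0.0999 for oligodendrocyte markers and −0.0345 for excitatory neuron markers. None of the 17 passed limma's adjusted p of 0.05 (0 of 17), and 3 had an unadjusted p under 0.05 on the higher side, where 1.37% of all genes did. On the lower side 0 of the 17 did, beside 0.854% of all genes. Trem2 and C1qc, among the 3, were also picked above for likeness to Lyz2, and these counts follow the table's direction. Trem2 at 0.39 and C1qc at 0.28 were at the top. At the bottom stood P2ry12, an ADP receptor of resting microglia, at −0.04 (SE 0.08), and Csf1r, the receptor on which microglia depend for survival, at −0.02 (SE 0.07). The summed level of the 17 markers was 1430 to 1660 in the 6 mutant means, against 1360 to 1480 in the 6 control means. Here and in the sums of the lists below, levels include the offset of 50 added to each signal, which weighs most on dim genes. The genotypes in these sums follow the authors' value table. Siglech and Csf3r were at background in all 24 readings. The part of microglial RNA in the Lyz2 ratio was not tested.

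Genes of activated microglia and phagolysosomes had a median ratio of 0.142 over 15 measured of 27 with a probe. Of these 13 lay above 0, and 10 with a median of 0.0237 when replicate 2 was turned. Without replicate 2, 13 lay above 0 and the median was 0.114. With the authors' processed signals 13 lay above 0 and the median was 0.274. By adjusted p 0 passed, and 5 of the 15 had an unadjusted limma p under 0.05 on the higher side, where 1.37% of all genes did. On the lower side 0 did, beside 0.854% of all genes. Ctss, H2-K1 and Ctsb, among the 5, were also picked above for likeness to Lyz2. These counts follow the table's direction. Ctss at 0.81 and H2-K1 at 0.33 led. Spp1, the secreted phosphoprotein osteopontin, at −0.14 (SE 0.20) and the integrin Itgax at −0.07 (SE 0.07) were lowest, and both are genes often raised in activated microglia. The summed level was 8090 to 11600 in mutant means, against 7280 to 9530 in control means. Gpnmb was at background in all 24 readings, and Cst7, Lpl, Clec7a and Axl were below the filter.

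Markers of blood-derived and border myeloid cells, in which Lyz2 is known to be abundant, were mostly too dim. Of 21 with a probe, 2 passed, the chitinase-like gene Chil3 at −0.02 (SE 0.07) and the lectin receptor Clec4n at 0.02 (SE 0.04). They read 0.11 and 0.00 with replicate 2 turned. The neutrophil genes S100a8, S100a9, Ngp, Camp, Ltf, Elane and Mpo, the monocyte receptor gene Ccr2 and the border macrophage genes Mrc1, Cd163, Pf4 and Lyve1 fell below the filter.

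Myeloid transcription factors had a median ratio of 0.0446 over 8 measured of 9 with a probe, 6 of them above 0, and −0.0012 with replicate 2 turned. Cebpd stood at 0.24 (SE 0.16) and Irf8, needed for microglial identity, at 0.10 (SE 0.05). The lowest were Cebpa at −0.04 and Runx1 at −0.03. Spi1, which encodes PU.1, fell below the filter. By adjusted p 0 of the 8 passed.

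Lysosomal enzymes and membrane proteins, the compartment in which Naglu acts and in which lysozyme is stored, had a median of 0.0407 over 27 measured of 35 with a probe. Of these 21 lay above 0, and 18 with replicate 2 turned, with a median of 0.0334. Ctsd, cathepsin D, stood at 0.20 (SE 0.08) and the thioesterase Ppt1 at 0.16 (SE 0.06), against −0.10 (SE 0.13) for the acid lipase Lipa and −0.07 (SE 0.07) for the calcium channel Mcoln1. By adjusted p 0 of the 27 passed. Naglu itself had 2 probes below the filter, the brighter with ratios of 0.03 ± 0.07 in MEC and 0.01 ± 0.05 in LEC (SD, n = 3 each), which check neither genotype nor labels.

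The captured cells expressed neuronal genes. The 9 measured excitatory markers had a median ratio of −0.029, with 3 above 0, and a summed level of 7430 to 9650 in mutant means, against 7550 to 9870 in control means. The 7 inhibitory markers had a median of 0.0352 and 5 above 0, but −0.079 and 1 above 0 when replicate 2 was turned, while the excitatory median was then 0.000525. Snap25 stood at 0.15 and Camk2a at −0.23 among excitatory genes, and Pvalb at 0.09 and Gad1 at −0.04 among inhibitory ones.

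Markers of glia and vessels were also present beside Lyz2. Astrocyte markers, 7 measured, had a median of 0.0469, with summed levels of 2030 to 4920 in mutant means, against 2360 to 3740 in control means. The glutamate transporter gene Slc1a2 was at 0.27 and Sox9 at −0.03. Oligodendrocyte markers, 9 measured, had a median of 0.0294 (Mobp 0.13, Sox10 −0.03) and vessel markers, 4 measured, 0.0326 (Flt1 0.12, Esam 0.00). Markers of blood, choroid plexus and meninges, 7 measured, had a median of −0.014, with Igf2 at 0.05 and Ttr at −0.19. When replicate 2 was turned, the medians were −0.0521 for astrocytes (1 of 7 above 0), −0.0121 for oligodendrocytes, −0.0246 for vessels and −0.0345 for blood, choroid plexus and meninges. The sign of the first 3 of these medians therefore depends on the direction of replicate 2. In these 6 lists of neuronal and other markers 0 members passed by adjusted p. Their part in the Lyz2 ratio was not tested.

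**Figure D5:**
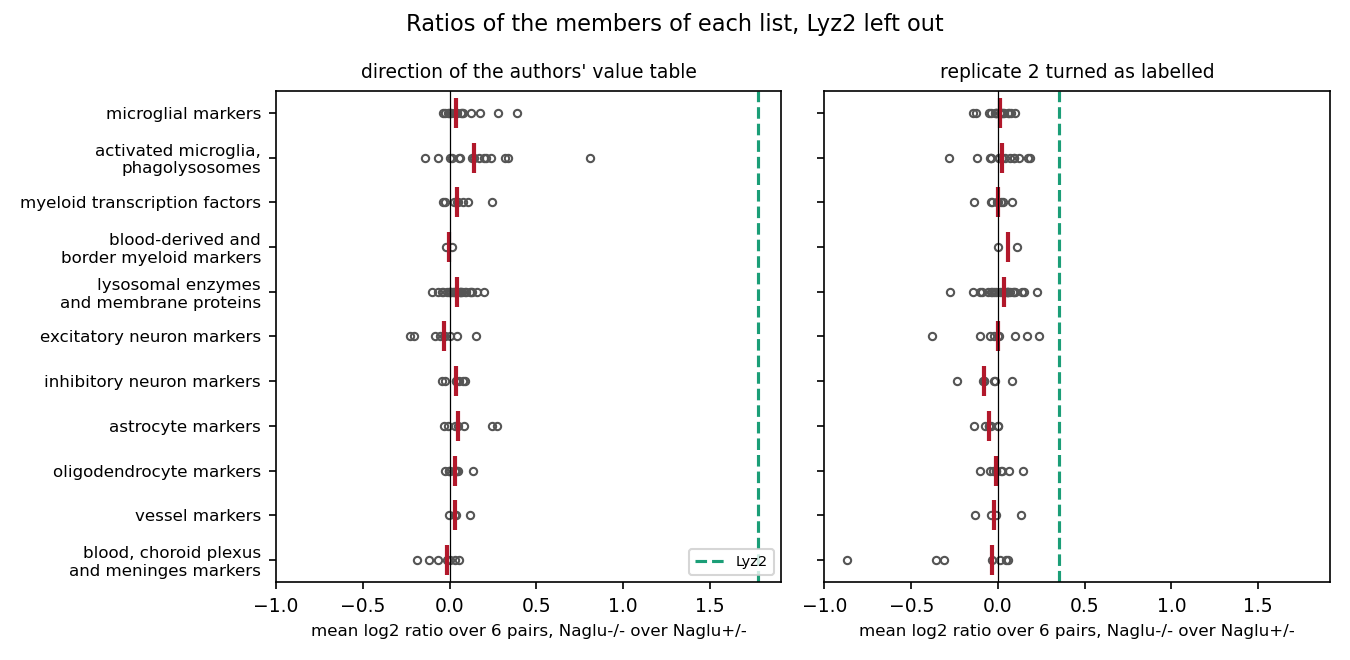
Mean log2 ratio of mutant over control over the 6 pairs for the measured members of 11 lists (circles), with the median of each list (red bar) and Lyz2, left out of the lists, as a dashed line at 1.78 on the left and 0.35 on the right. The left panel follows the authors' value table and the right one has replicate 2 turned as labelled. The member nearest to Lyz2 on the left is Ctss at 0.81.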

How the data were processed

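Per the labels' protocols, total RNA of laser-captured neurons was linearly amplified and labelled with Cy3 or Cy5. The deposited scanner files hold raw intensity per spot and dye (mean signal, median local background), background-subtracted and dye-normalised intensity, a log10 ratio of Cy5 over Cy3 and flags that are other values of 0 or 1. Per the file headers they come from Agilent Feature Extraction 9.5.1.1, while the submitters' processing notes name 8.5.1.1. A further table, the authors' value table, gives log2 ratios per array, deposited without a stated centring. Median mean signals were 67 to 92.5 units in Cy3 and 44.4 to 54.9 in Cy5, and the number of arrays limits the precision.

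Each table column matched a single array over 9166 bright spots (correlation 0.995 to 0.999 in size, at most 0.657 with any other). This puts 5 of the 6 LEC files with a different LEC sample from the one they are named for. Arrays were assigned and signed by the table.

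In R 4.3.3 with limma 3.58.1, signals were corrected by normexp (offset 50) and loess, and levels were scaled by Aquantile. Spots of a probe, then both arrays of a pair, were averaged. Probes were kept (12981) if at least 4 of 6 readings of 1 region and genotype were well above background, and the brightest stood for its gene (10894, of which 9553 have a gene name). Fits used lmFit and eBayes over 6 pair means, with Benjamini-Hochberg adjustment over all genes, and were tested on simulated data. Gene names came from RefSeq (GRCm38.p6). Named were Lyz2, the 10 genes most like it (of which 1 is not reported here), the 2 highest and 2 lowest measured members of each list, the measured lysozyme genes and neighbours, and Naglu. Lyz2, the lists and these rules were chosen with earlier results of these data known. Pairs of the same number did not deviate together between MEC and LEC (correlations −0.36 to 0 for the ratios). Alternatives changed the background, dye and filter steps, the direction of replicate 2, the assignment of files and the pairs used. The counts of the lists without replicate 2 and with it turned were added after seeing the data.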

Additional observations from a re-analysis of the deposited data

How the results depend on the processing

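With the authors' processed signals Lyz2 read 2.73 in MEC, 2.39 in LEC and 2.56 over both, with MEC minus LEC at 0.34. The authors' value table gave 2.72, 2.38, 2.55 and 0.33. A normexp offset of 16 gave 2.27 in MEC and median centring 2.00. With replicate 2 turned as labelled the values were 0.59, 0.10 and 0.35, with MEC minus LEC at 0.49. With files and dyes as labelled they were 0.59, 0.88 and 0.74, with −0.29. Without replicate 2 of both regions MEC minus LEC was 0.38. Leaving out 1 pair at a time gave 1.73 to 1.85 in MEC, 1.40 to 2.07 in LEC, 1.60 to 1.93 over both and −0.28 to 0.38 for MEC minus LEC. The mean ratio stayed above 0 in MEC, in LEC and over both under the alternatives run. With replicate 2 turned as labelled, however, its pairs read −1.80 in MEC and −2.50 in LEC. The LEC mean of 0.10 then averages pairs of opposite sign. An offset added to both dyes draws a ratio toward 0 where a signal is dim. The control signal of Lyz2 less its local background was 21.8 to 228 units, beside the main offset of 50. The size of the main ratio therefore depends on the offset. What part each step had in the other moves was not tested.

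The level of Lyz2 did not pass the test of MEC against LEC in any of the 17 alternatives run, with adjusted p of 0.238 to 0.969 over both channels, 0.182 to 0.999 in mutant channels and 0.317 to 0.982 in control channels. Leaving out 1 pair gave −0.06 to 0.38 over both channels, −0.08 to 0.41 in mutant and −0.03 to 0.46 in control channels. The largest moves over both channels and in mutant channels came without replicate 2 of both regions, with 0.44 over both channels and 0.63 in mutant channels (limma unadjusted p = 0.0179, adjusted p = 0.182).

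The count of genes passing for mutant over control was 0, and 1, Lyz2, over both regions with processed signals or an offset of 16. Leaving out 1 pair gave 0 to 1 in MEC and over both, where the 1 was Lyz2 without LEC replicate 2, and 0 in LEC. As Lyz2 was chosen from this contrast, these calls are descriptions. The count for levels over both channels was 730 without replicate 2, and 1728 to 2592 without 1 pair. The replicate number as a block left Lyz2 at 1.78 over both regions and 0.02 for MEC minus LEC, with 0.16 for the level over both channels (limma adjusted p = 0.646). It moved the count of genes passing for that level to 2401, against 2794 without the block. The ratio deviations of the pairs of 1 number correlated at −0.18, 0 and −0.36 between the regions, and 0 of 3 MEC pairs correlated best with the LEC pair of its number. A block on slide or scan session was not possible, since each array is its own slide and each session holds 1 region. Signal over background limits what the second Lyz2 probe and Lyz1 can show.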
